A study of Homo sapiens with 27 samples.

Results

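Loss of TADA2B was set against the change that the MEK inhibitor trametinib causes in A375 cells, an established human melanoma line that carries an activating BRAF mutation. The question taken here is how the 24 h response to 20 nM trametinib differed between cells targeted at TADA2B and control cells. The answer for each gene was the interaction: the log2 change from DMSO to trametinib averaged over both TADA2B guides, minus the same change in the cells with the GFP guide. It used 18 of the 27 libraries of the series, in 6 groups of 3. The other 9, treated with vemurafenib, entered only a test of the drug difference near the end.

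The control cells carried a guide against GFP. The labels give their genotype as WT, and the treatment note calls them non-targeting. The targeted cells carried 1 of 2 guides against TADA2B and are labelled TADA2B KO. All 6 groups were A375 cells in the same medium, exposed for 24 h to DMSO, the solvent, or to trametinib. The labels name no clone and no delivery of the guides, and they do not say whether the 3 replicates of a group came from separate cultures. The p-values thus rest on a spread that may be technical only. Poly(A) RNA was sequenced, and reads per gene were counted for 58721 genes. Library totals ran from 67502300 to 92513726 counted reads, and 24602 genes had enough counts to be tested. Replicates were tight, at a common biological CV of 3.71%. Small differences therefore passed the test. For this reason a gene was described as differing only at an adjusted p below 0.05 in edgeR's quasi-likelihood test, and as differing strongly only where the interaction was also at least 2-fold.

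TADA2B is the adaptor that ties the acetyltransferases KAT2A and KAT2B to SAGA, a coactivator complex that acetylates histone H3 at promoters and helps recruit RNA polymerase. MEK kinases pass the signal of mutant BRAF to ERK. Blocking them in BRAF-mutant melanoma shuts down ERK target genes and the cell cycle, and it raises genes of melanocytes and of neural crest cells. The interaction between guide and drug measures whether a gene's response differed between the cells.

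The transcript of TADA2B itself gave no check of the targeting. Its levels in CPM (read counts scaled to a library size of 1000000) were 29.8, 30.7 and 31.5 in control cells in DMSO, 29.2, 30.7 and 30.1 with guide 1 and 28.6, 26.9 and 29.3 with guide 2. In trametinib they were 39.9, 40.1 and 42.1 in control cells, 33.9, 35.1 and 34.4 in guide 1 cells and 28.3, 29.01 and 29.4 in guide 2 cells. In DMSO the guide 1 libraries overlapped control libraries and the guide 2 libraries lay just below them, whereas in trametinib every targeted library was below every control library. A guide RNA cuts DNA and need not remove the transcript, so these values say nothing about the protein. The separation of the libraries followed their labels. The first principal component of the 5000 most variable genes (56.2% of the variance) split DMSO from trametinib, and the second (22.5%) split control from targeted cells. Markers of the melanoma line were abundant as a sum throughout, at 601.0 to 4320.0 CPM. Of the 12, TYR was too low to test and 8 were above 1 CPM in control cells in DMSO, where SOX10 alone stood at 870 CPM. Those of leukocytes summed to 9.98 to 38.3 CPM, those of endothelium to 11.3 to 22.7 CPM, those of keratinocytes to 48.3 to 64.7 CPM and those of fibroblasts to 36.3 to 147.0 CPM. Of these markers, 3 of 12, 2 of 10, 4 of 10 and none of 10 were too low to test.

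Trametinib switched off the output of the MAPK pathway in control and in targeted cells alike. DUSP6, an ERK phosphatase transcribed in response to ERK activity, stood at 147, 143 and 142 CPM in control cells in DMSO and at 1.06, 0.938 and 1.11 CPM in trametinib. With guide 1 it stood at 182, 180.4 and 181 CPM in DMSO and at 0.859, 0.763 and 0.766 CPM in trametinib. With guide 2 it stood at 168, 164 and 158 CPM and 0.570, 0.858 and 0.693 CPM. No DMSO library came near any trametinib library. The fall was 139-fold in control cells and 229-fold in targeted cells. The log2 interaction was -0.71 ± 0.11 (SE; adjusted p 1.21e-06), a fall that was larger in targeted cells but below 2-fold in difference. SPRY4, a feedback inhibitor of the same pathway, fell 269-fold in control and 163-fold in targeted cells, an interaction of 0.72 ± 0.096 in the other direction. All 25 genes of a list of MAPK output fell in both kinds of cells, with median log2 responses of -3.341 in control and -3.224 in targeted cells. Over all genes, 33.5% fell in control cells and 35.4% in targeted cells, and 37% and 37.4% rose.

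Within that list the members split. The interaction was positive for 11 members, negative for 10 and not called for 4, beside 45.7% of all genes called (21.5% positive, 24.2% negative, a balance that turned with DESeq2's size factors). SPRY1, another Sprouty feedback inhibitor, fell from 18.1 to 0.106 CPM in control cells but only from 11.6 and 14.7 to 0.368 and 0.674 CPM with the guides, an interaction of 2.67. SPRY2 behaved alike, with 1.53. DUSP5, a nuclear ERK phosphatase, did the opposite. It fell from 36.7 to 18.7 CPM in control cells and from 48.1 and 57.3 to 7.35 and 5.65 CPM in the targeted cells, an interaction of -2.05. EGR2, an immediate early transcription factor, was near the detection limit in control cells (0.134 CPM in DMSO), reached 1.98 and 2.63 CPM in targeted cells in DMSO, and fell to 0.0988 and 0.0693 CPM in trametinib. SPRY1 and SPRY2 thus kept more transcript in the targeted cells under the drug, and DUSP5 kept less.

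Across the transcriptome the targeted cells responded less. Of the 4171 genes that rose at least 2-fold in control cells, the median log2 rise was 1.8 in control cells, 1.19 in guide 1 cells and 1.05 in guide 2 cells. Of the 3136 that fell at least 2-fold, the medians were -1.67, -1.13 and -1.02. The targeted response was a median 61.2% of the control response on the log2 scale for the rises and 66.5% for the falls. Because genes picked for a large control response tend to be smaller in any other measurement, the same was read from the other side. Of the 3175 genes that rose at least 2-fold in the targeted cells, 397 had a control response that was larger by 2-fold and 234 one that was smaller. For the 2170 that fell, the counts were 228 and 194. Control responses were thus the larger ones more often even among genes picked for their response in targeted cells. Over all tested genes the slope of the targeted on the control response was 0.632 (0.661 with guide 1 and 0.603 with guide 2), and Pearson's r was 0.81. The slope the other way was 1.04. These are descriptions across genes, which are not independent replicates. The 2 responses share no library.

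The interaction passed the test for 11250 of 24602 genes, and 2232 (9.07%) had an interaction of at least 2-fold, 977 positive and 1255 negative. These 2232 were sorted by the direction of the response in control and in targeted cells, taking a response as present past 1.5-fold. The sorting uses the measured means and is a description. In a blunted gene the targeted response was smaller than the control response, in an enhanced gene it was larger in the same direction, in a reversed gene it ran the other way, and in a knockout-only gene the control cells did not respond past 1.5-fold. Blunted rises numbered 980 and blunted falls 645. Reversed genes numbered 206 (100 that rose and 106 that fell in control cells) and enhanced genes 126 (65 and 61). Knockout-only genes numbered 264 (155 rises and 109 falls), and 11 genes fitted no class. Blunted genes were therefore the most frequent kind, at 43.9% and 28.9% of the strong interactions. The 2-fold threshold cut through a continuous range: ARG2 lay just inside it at a log2 interaction of -1.0003 and GPC4 just outside at 0.99915.

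**Figure D1:**
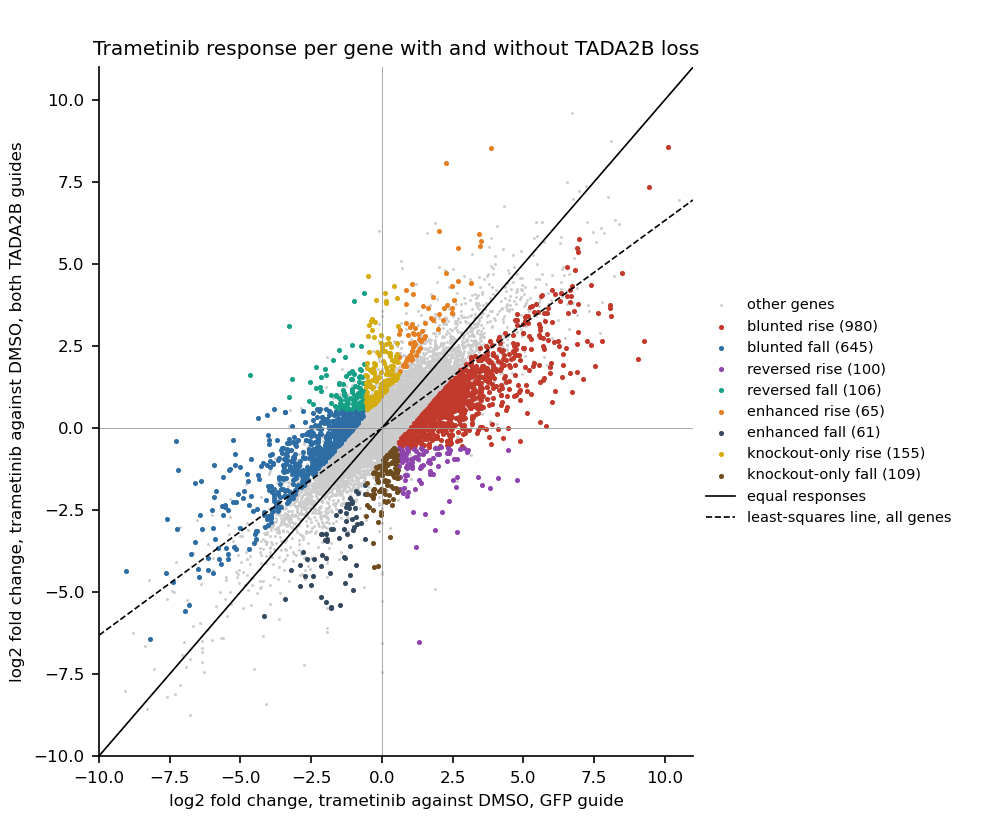
The log2 fold change from DMSO to trametinib in control cells (horizontal axis) is plotted against that in TADA2B-targeted cells (vertical axis), 1 point per tested gene and n = 3 libraries per group. Colours mark the 8 classes, grey the other genes, the solid line equal responses and the dashed line the least-squares fit. The cloud is flatter than the solid line, with a slope of 0.632, so rises tended to lie below that line and falls above it.

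An interaction can come from cells that already differ in DMSO, from cells that differ only under the drug, or from both. Of the 980 blunted rises, 405 were at least 2-fold apart between targeted and control cells in DMSO only, 232 in trametinib only, 151 in both and 192 in neither. The median log2 difference of targeted from control cells was 1.13 in DMSO and -0.503 in trametinib. More blunted rises were therefore apart before the drug (556) than under it (383). The blunted falls had the opposite makeup: 123 were apart in DMSO only, 282 in trametinib only, 86 in both and 154 in neither, with medians of -0.401 in DMSO and 1.16 in trametinib. More blunted falls were apart under the drug (368) than before it (209). An average log2 CPM of at least 1 was reached by 369 of the blunted rises and 321 of the blunted falls, so many members were low in level. The split carries no test and was not repeated with a stricter filter on low counts.

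**Figure D2:**
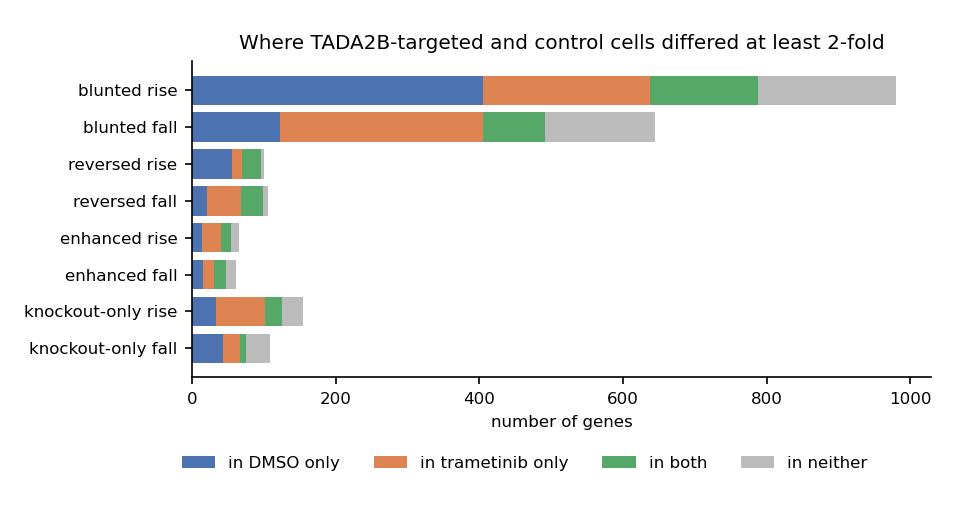
Bars give the number of genes in each class, split by the condition in which targeted and control cells differed at least 2-fold. The split uses the size of the difference alone, without a test. The largest block of the blunted rises (405 of 980) is apart in DMSO only, and that of the blunted falls (282 of 645) in trametinib only.

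The AP-1 transcription factors were among the most blunted rises. AP-1 is a dimer of JUN and FOS family proteins that binds enhancers and promoters of stress and growth genes. JUN (chr1:58780788-58784327, GRCh38) stood at 9.49, 9.90 and 8.67 CPM in control cells in DMSO and at 593, 586 and 626 CPM in trametinib. With guide 1 it went from 13.5, 12.5 and 13.3 to 203, 207 and 204 CPM. With guide 2 it went from 15.1, 16.3 and 17.5 to 90.8, 94.9 and 94.3 CPM. The 6 groups did not overlap: in DMSO the targeted cells had slightly more JUN transcript, and in trametinib control cells had the most, guide 1 cells less and guide 2 cells the least. The rise was 64.3-fold in control cells, 15.6-fold in guide 1 cells and 5.74-fold in guide 2 cells, and the log2 interaction was -2.76 ± 0.052 (adjusted p 6.16e-35).

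ATF3, a stress-induced partner of JUN, rose from 2.62 to 150.2 CPM in control cells, from 3.57 to 39.2 CPM with guide 1 and from 4.34 to 21.4 CPM with guide 2 (interaction -2.96 ± 0.08). FOS rose from 5.89 to 57.8 CPM in control cells and from 6.45 and 4.69 to 12.5 and 6.31 CPM with the guides (-2.60 ± 0.081). FOSL2 rose from 29.7 to 492 CPM in control cells, from 38.98 to 195 CPM in guide 1 cells and from 49.4 to 120.5 CPM in guide 2 cells (-2.24 ± 0.04). All 4 were within 2-fold of their control levels in DMSO and further apart under the drug. Of the 13 AP-1 family members tested, 8 had a negative interaction, 3 a positive one and 2 were not called, with a median of -0.766, the lowest among the 44 lists described. Over all genes the median was -0.016, with 24.2% negative and 21.5% positive.

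The sequence that AP-1 binds, TGACTCA on either strand, was looked for in the 250 bases before and 50 bases after the start of each gene, in RefSeq's promoter table (GRCh38.p14). Of 14101 tested genes with such a window, 534 (3.79%) held the motif. It was in 69 of 707 genes (9.76%) with a negative interaction of at least 2-fold and in 28 of 578 (4.84%) with a positive one. By class the share was 8.2% of 561 blunted rises, 16.7% of 48 reversed rises, 19.4% of 36 enhanced falls and 13.6% of 59 knockout-only falls, the classes with a negative interaction. In the classes with a positive interaction it was 4.11% of 389 blunted falls, 5.17% of 58 reversed falls, 9.3% of 43 enhanced rises and 5.88% of 85 knockout-only rises. Other motifs were searched in the same windows. CATGTG, the core that MITF binds, was in 11.2% of negative and 10.6% of positive strong interactions, against 7.86% of all windows. GGAAGTG, an ETS site, was in 10.3% and 7.61% against 14.1%. CACGTG, an E-box, was in 6.51% and 8.65% against 9.39%, and TGACGTCA, a CRE site, in 2.69% and 1.38% against 2.9%. A match of letters is no evidence of binding, and these shares carry no test.

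Sequences around the motif show that it stood before genes of several classes. They were chosen by hand after their values were seen, to cover several classes. Each was among the most changed such genes of its class with an average log2 CPM of at least 1. Blunted rises not printed, such as RGS8 (-2.22) and TNFRSF9 (-2.21), had larger interactions than UCN2 and VAV3. Each is printed on the strand of its gene, 5′ to 3′, with the motif (TGACTCA or its reverse complement) in capitals, and ends before the start of the gene. The lines give RAB3B (chr1:51990788-51990844) and RUNX2 (chr6:45328080-45328118), both blunted rises, IL11 (chr19:55370528-55370584) and UCN2 (chr3:48563852-48563908), both enhanced falls, and TENT5B (chr1:27012952-27013008), a blunted fall, and VAV3 (chr1:107688584-107688640), an enhanced rise, whose interactions were positive.
RAB3B: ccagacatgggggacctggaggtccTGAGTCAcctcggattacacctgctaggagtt
RUNX2: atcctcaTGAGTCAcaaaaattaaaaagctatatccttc
IL11: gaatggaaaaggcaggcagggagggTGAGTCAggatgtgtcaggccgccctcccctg
UCN2: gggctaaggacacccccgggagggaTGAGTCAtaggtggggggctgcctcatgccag
TENT5B: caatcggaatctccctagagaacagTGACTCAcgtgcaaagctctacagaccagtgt
VAV3: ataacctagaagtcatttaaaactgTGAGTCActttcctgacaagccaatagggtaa
RAB3B, a vesicle GTPase, rose from 3.61 to 121 CPM in control cells and from 19.2 and 17.8 to 74.3 and 59.9 CPM in targeted cells (interaction -3.21). RUNX2, a transcription factor of bone, rose from 7.95 to 73.4 CPM in control cells but only from 13.8 to 21.1 CPM with guide 1, and was at 17.03 and 17.6 CPM with guide 2 (-2.88). UCN2, a peptide hormone, fell from 33.2 to 20.1 CPM in control cells and from 19.6 and 14.1 to 3.47 and 1.45 CPM in targeted cells (-2.16). TENT5B fell from 19.3 to 1.71 CPM in control cells and only from 19.9 and 22.3 to 12.01 and 15.9 CPM in targeted cells (2.88). The same letters thus preceded genes that ended lower and genes that ended higher in targeted cells under the drug.

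The blunted rises with the largest interactions also held a glutamate receptor, transporters and a matrix protein. GRIN2A (chr16:9753404-10182754), a subunit of the NMDA receptor that is often mutated in melanoma, went from 0.0684, 0.102 and 0.198 CPM to 33.8, 31.7 and 33.6 CPM in control cells. In guide 1 cells it went from 0.761, 0.823 and 0.579 to 10.4, 10.5 and 11.4 CPM, and with guide 2 from 0.457, 0.577 and 0.635 to 5.94, 5.53 and 6.33 CPM. Every targeted library was above every control library in DMSO and below every one in trametinib. The rise was 269-fold in control cells and 12.6-fold in targeted cells, an interaction of -4.41 ± 0.23 (adjusted p 5.01e-20). CCN3, a secreted matrix protein, rose from 7.70 ± 0.297 to 489 ± 7.58 CPM (SD, n = 3) in control cells, from 36.3 ± 0.800 to 250.4 ± 9.71 CPM with guide 1 and from 34.8 ± 1.02 to 78.2 ± 0.928 CPM with guide 2. It thus started higher in targeted cells and ended lower.

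SLC6A12, a betaine and GABA transporter, differed in another way. It rose from 0.0820, 0.140 and 0.282 to 5.99, 6.73 and 6.93 CPM in control cells, from 3.59 ± 0.624 to 7.80 ± 0.653 CPM with guide 1 and from 4.56 ± 0.213 to 8.92 ± 0.495 CPM with guide 2. The targeted cells already had 24.1-fold more in DMSO and ended 1.27-fold higher, so the interaction of -4.24 ± 0.22 came from the starting level. LGR6, a receptor for R-spondins, had 7 counts in all in the 3 control libraries in DMSO and 115 in trametinib, a ratio of 17.1 (95% exact interval 8.06 to 43.6, counting error only). In targeted cells LGR6 was at 3.42 and 3.69 CPM in DMSO and at 2.38 and 2.68 CPM in trametinib.

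Interferon-stimulated genes made up a further group whose starting level differed. These genes respond to type I interferon and to nucleic acid sensors. Of 42 tested, 35 rose in control cells and 29 in targeted cells, and the median response was 0.801 against 0.348. The interaction was negative for 28, positive for 3 and not called for 11, beside 24.2% negative and 21.5% positive over all genes. The median level of the list was higher in targeted cells by 1.099 in DMSO and by 0.705 in trametinib. RSAD2, an antiviral enzyme also called viperin, stood at 0.0820, 0.0765 and 0.113 CPM in control cells in DMSO and at 2.37, 1.80 and 1.58 CPM in trametinib. With guide 1 it stood at 5.98, 4.09 and 4.57 and 8.47, 9.35 and 6.33 CPM, and with guide 2 at 5.92, 5.49 and 3.36 and 6.16, 6.19 and 6.89 CPM. Even in DMSO every targeted library was above every control library in trametinib.

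IFI44L, an interferon-induced gene of the same kind, rose from 0.572 to 4.29 CPM in control cells, from 6.19 to 15.7 with guide 1 and from 7.74 to 13.4 with guide 2 (interaction -1.84 ± 0.24). XAF1, a pro-apoptotic interferon target, had 4 counts in control cells in DMSO and 65 in trametinib (ratio 17, 95% exact interval 6.31 to 64.1) and rose from 1.01 to 2.09 CPM with guide 1. OASL, an antiviral factor, rose from 0.765 to 2.02 CPM in control cells but did not rise in targeted cells, with 7.97 and 7.12 CPM with guide 1 and 11.3 and 6.96 CPM with guide 2. The promoter of IFI44L holds the letters of the interferon-stimulated response element, GAAA repeated after 2 free bases. They occur there more than once with identical surroundings, and the copy at chr1:78620259-78620318 is printed with these letters in capitals.
IFI44L: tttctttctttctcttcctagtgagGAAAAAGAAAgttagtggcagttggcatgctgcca
Such letters were in 3.01% of all promoter windows and in 4.1% of those of blunted rises, so the class as a whole was close to the background. They also stood before KRT10, CAPN3 and BCO2, and a match of letters is no evidence of binding.

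Genes of the pigment cell lineage rose less in targeted cells. DCT, the melanin enzyme dopachrome tautomerase, was the extreme case, from 1.11, 0.816 and 0.847 CPM in DMSO to 1027, 1021 and 1046 CPM in control cells. Cells with guide 1 went from 0.213, 0.196 and 0.126 to 107, 100.03 and 98.4 CPM, and with guide 2 from 0.248, 0.349 and 0.192 to 66.8, 67.03 and 67.4 CPM. Targeted libraries were below control libraries in both conditions, by 4.20-fold in DMSO and 12.5-fold in trametinib, and the interaction was -1.57 ± 0.18 (adjusted p 1.85e-09). MITF, the master regulator of the lineage, rose in control cells from 77.9 ± 0.412 to 138 ± 4.12 CPM, with guide 1 from 58.00 ± 0.514 to 88.1 ± 0.354 CPM, and with guide 2 from 53.7 ± 2.89 to 88.1 ± 1.92 CPM. Its interaction of -0.17 ± 0.04 was small. So was that of SOX10, the neural crest factor upstream of MITF, at -0.15 ± 0.038 (adjusted p 0.00107, and 0.1 with guide 1 alone). SOX10 was nevertheless 2.49-fold lower in targeted cells in DMSO and 2.76-fold lower in trametinib.

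Of 21 melanocyte genes tested, 13 had a negative interaction, 1 a positive one and 7 were not called. The shares over all genes were 24.2% negative and 21.5% positive. The median responses were 0.555 in control and 0.344 in targeted cells. Relative to control cells, the list differed by a median log2 of 0.265 in DMSO and -0.127 in trametinib, so its starting level differed too. TYRP1, one of the melanoma line markers, had 18 raw counts in control cells in DMSO and 189 in trametinib. It had 111 and 316 with guide 1 and 101 and 414 with guide 2, more than control cells in both conditions. CAPN3, a calpain protease found in melanocytes, rose from 0.103 to 8.23 CPM in control cells and from 0.148 and 0.122 to 2.60 and 1.51 CPM in targeted cells (interaction -2.43 ± 0.34). TRPM1, an ion channel of melanocytes, rested on few reads: 2 counts in control cells in DMSO and 102 in trametinib, a ratio of 53.2 (95% exact interval 14.4 to 445.0). Its call was lost without the third control library in DMSO (adjusted p 0.0612) and with guide 1 alone (0.306). Of 22 genes of the neural crest-like state, 16 had a negative and 4 a positive interaction. NGFR, the nerve growth factor receptor that marks that state, rose from 100.02, 109.7 and 108 to 172, 169 and 187 CPM in control cells. With guide 1 it was at 46.4, 50.1 and 49.8 and 51.5, 53.2 and 50.8 CPM, and with guide 2 it went down from 33.9, 35.4 and 37.2 to 23.8, 27.6 and 25.7 CPM. NGFR was therefore 2.55-fold lower in targeted cells in DMSO and 4.82-fold lower in trametinib. GFRA2, a coreceptor for neurturin, rose from 0.202 to 1.53 CPM in control cells and from 0.285 to 0.734 CPM with guide 1, and was at 0.306 and 0.438 CPM with guide 2. TFAP2B, a neural crest transcription factor, fell from 276 to 36.02 CPM in control cells, and from 135 and 76.6 to 43.2 and 36.2 CPM in targeted cells.

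**Figure D3:**
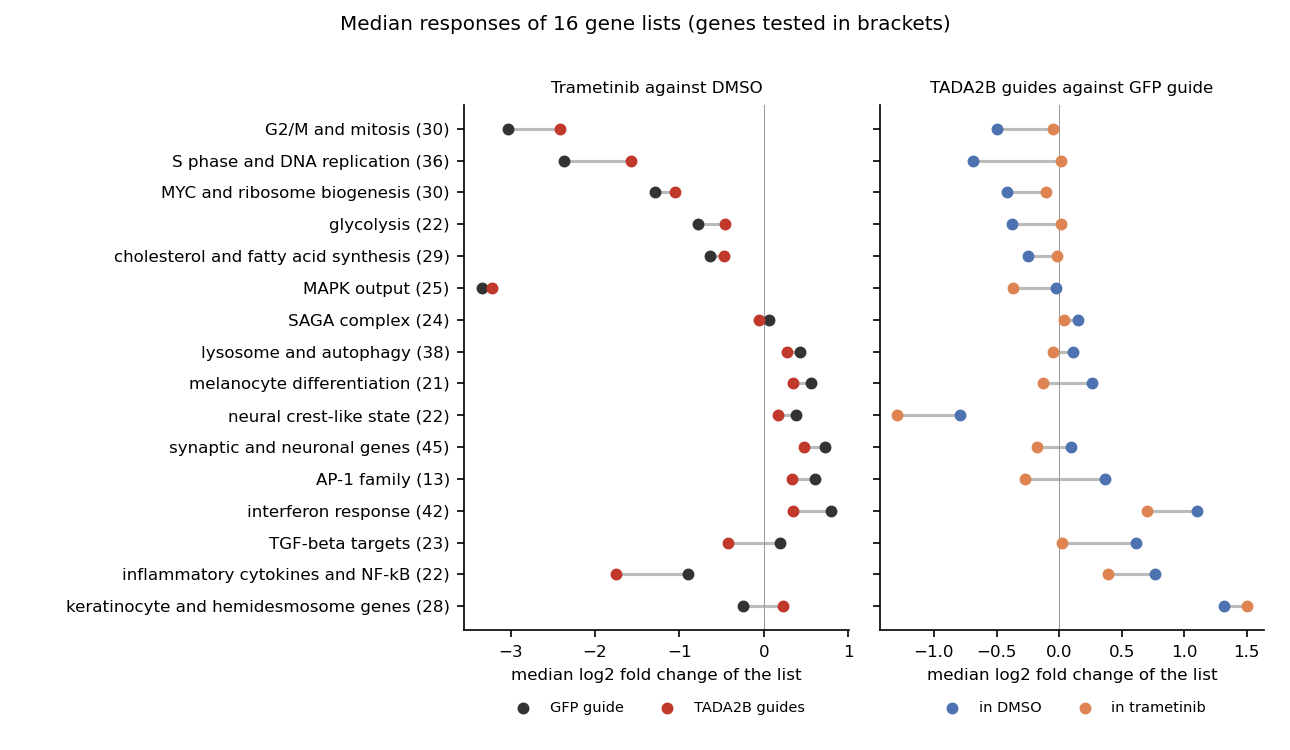
Each row is a list of genes. The left panel gives its median log2 change from DMSO to trametinib in control and in targeted cells, the right panel the median log2 difference of targeted from control cells in DMSO and in trametinib; cell cycle lists fell less in targeted cells, with a lower level in DMSO and nearly the same level in trametinib, and no error is drawn because a median over genes has no replicate.

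Genes of S phase and mitosis fell with the drug in all cells, but less in targeted cells. All 36 genes of S phase fell in both kinds of cells, with median log2 responses of -2.368 in control and -1.579 in targeted cells, and 33 of the 36 had a positive interaction. In bulk RNA, fewer cycling cells and less transcript per cell cannot be told apart. All 30 genes of mitosis had a positive interaction, with median responses of -3.028 and -2.416. The share of all genes with a positive interaction was 21.5%. The lists differed in DMSO and met under the drug: relative to control cells, S phase genes differed by a median log2 of -0.687 in DMSO and 0.014 in trametinib, and mitosis genes by -0.496 and -0.049. MCM10, a replication initiation factor, stood at 63.9, 61.6 and 65.1 CPM in control cells in DMSO and 1.12, 0.665 and 0.922 CPM in trametinib. With guide 1 it went from 32.5, 34.6 and 33.8 to 1.27, 1.88 and 1.45 CPM, and with guide 2 from 32.2, 33.3 and 31.4 to 1.74, 1.80 and 1.69 CPM. Targeted libraries were lower in DMSO and higher in trametinib, with no overlap (interaction 1.81 ± 0.13). BUB1B, a spindle checkpoint kinase, went from 109 to 11.4 CPM in control cells, and from 62.1 to 11.3 with guide 1 (0.91 ± 0.051).

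Regulators upstream of S phase were mixed. E2F2, a transcription factor of S phase genes, fell from 18.4, 17.2 and 17.8 to 0.458, 0.392 and 0.227 CPM in control cells. It fell from 10.8 CPM only to 1.24, 1.75 and 1.41 CPM with guide 1 and from 10.5 CPM to 1.97, 2.19 and 1.76 CPM with guide 2, an interaction of 2.97 ± 0.17. E2F1 had 1.27 ± 0.093 and CDK6, a G1 kinase, 1.13 ± 0.043. CCND1, the cyclin that partners CDK6, fell from 418 ± 12.8 to 28.2 ± 1.05 CPM in control cells, from 372 ± 2.59 to 37.8 ± 1.25 CPM with guide 1 and from 245 ± 5.43 to 36.6 ± 0.513 CPM with guide 2 (0.87 ± 0.038). E2F1, E2F2, CDK6 and CCND1 ended at a higher level in targeted cells under trametinib, CDK6 at 91.2 and 114 CPM against 78.97 CPM in control cells. Of 18 tested genes in a list of G1 cyclins, kinases and inhibitors, 7 had a positive, 7 a negative and 4 no called interaction. The direction thus did not extend to the list as a whole. Over all genes 45.7% were called, 21.5% positive and 24.2% negative.

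Genes of biosynthesis had mostly positive interactions. MYC fell 16.7-fold in control and 9.42-fold in targeted cells (0.83 ± 0.13), from 22.6 CPM against 11.1 and 8.53 CPM. Of 30 genes of MYC and ribosome biogenesis, 25 had a positive and 1 a negative interaction, with a median of 0.311. TSR1, a ribosome assembly factor, had 0.60 ± 0.037. Of 22 glycolysis genes, 17 had a positive and 2 a negative interaction (median 0.35). ALDOC, an aldolase, had 0.98 ± 0.043, and LDHA, lactate dehydrogenase, fell from 1595 to 446 CPM in control cells and from 1086 to 468 CPM with guide 1. Of 29 genes of cholesterol and fatty acid synthesis, 17 had a positive and 4 a negative interaction, with DHCR7, the last enzyme of cholesterol synthesis, at 0.89 ± 0.047. No gene in the last 2 lists reached 2-fold. Lysosomal genes went the other way: 24 of 38 had a negative and 2 a positive interaction. Among all tested genes 24.2% were negative and 21.5% positive. SQSTM1, the autophagy receptor p62, rose from 251 to 577 CPM in control cells but from 428 to only 481 CPM with guide 1.

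The blunted falls with the largest interactions were genes that trametinib shut off in control cells and left partly on in targeted cells. A4GALT (chr22:42692112-42721298), the enzyme that makes the glycolipid Gb3, fell from 8.63, 7.96 and 9.80 to 0.217, 0.0831 and 0.240 CPM in control cells. In guide 1 cells it fell from 11.8, 10.6 and 11.5 to 2.82, 3.23 and 3.81 CPM, and with guide 2 from 10.8, 11.9 and 11.5 to 4.19, 5.63 and 4.76 CPM. The DMSO levels were close, and under the drug every targeted library lay far above every control library. The fall was 49.00-fold against 2.85-fold, an interaction of 4.11 ± 0.21 (adjusted p 8.11e-19). PDZD2, a scaffold protein, fell from 43.2 ± 1.37 to 1.74 ± 0.0545 CPM in control cells and from 25.6 ± 1.35 and 24.7 ± 1.39 to 10.5 ± 0.0778 and 16.02 ± 0.321 CPM in targeted cells. ADGRF1, an adhesion G protein-coupled receptor, fell 86.1-fold in control and 6.27-fold in targeted cells, and stood higher in targeted cells in both conditions.

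ANO4, a membrane protein of the anoctamin family, belonged to this class for another reason. It was 5.96-fold lower in targeted cells before the drug, at 5.10 ± 0.304 and 3.74 ± 0.466 CPM against 26.02 ± 0.532 CPM, and ended near 0.703, 1.03 and 0.565 CPM. FGFBP1, a carrier of fibroblast growth factors, had 181 counts in control cells in DMSO and 2 in trametinib, a fall of 86.7-fold with a 95% exact interval of 23.7 to 722.0. In targeted cells it fell from 5.52 and 8.73 CPM to 0.702 and 0.981 CPM.

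Targets of the coactivators YAP and TEAD, which respond to cell shape and tension, held further blunted falls. Of 26 tested, 13 had a positive, 5 a negative and 8 no called interaction, beside 21.5% positive and 24.2% negative over all genes. IGFBP3, a secreted binder of insulin-like growth factors, fell from 42.03, 38.02 and 39.96 to 1.05, 0.950 and 0.721 CPM in control cells. It fell only to 6.91, 8.48 and 8.16 CPM with guide 1 and to 10.9, 10.4 and 11.2 CPM with guide 2, from 57.4 and 48.1 CPM, an interaction of 2.94 ± 0.10. ANKRD1, a nuclear ankyrin repeat protein, had 2.58 ± 0.13 and CCN1, a secreted matrix protein, 2.06 ± 0.06. CCN2, of the same protein family as CCN1, moved the opposite way: it went from 37.5 to 42.9 CPM in control cells, and fell from 58.6 to 30.7 CPM with guide 1 and from 70.8 to 20.4 CPM with guide 2 (-1.56 ± 0.046). In the BCL2 family, PMAIP1, the pro-apoptotic protein NOXA, fell from 15.7 to 0.964 CPM in control cells and only from 25.9 and 28.9 to 6.43 and 9.97 CPM in targeted cells (2.26 ± 0.11). BCL2A1, an MITF target that protects from apoptosis, rose from 0.889 to 10.98 CPM in control cells but only from 0.859 and 0.836 to 3.81 and 2.20 CPM in targeted cells (-1.86 ± 0.17). Of the 16 members tested, 10 had a negative and 2 a positive interaction.

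Reversed genes responded in opposite directions. PMEPA1 (chr20:57648392-57711536), a TGF-beta target that restrains SMAD signalling, rose in control cells from 101, 101 and 98.7 to 186, 181 and 183 CPM. It fell with guide 1 from 243, 246 and 256 to 68.9, 66.2 and 69.1 CPM and with guide 2 from 181, 173 and 162 to 35.1, 37.6 and 35.8 CPM. Targeted libraries were above control libraries in DMSO and below them in trametinib, without overlap. The change was a 1.83-fold rise against a 4.17-fold fall, an interaction of -2.93 ± 0.041 (adjusted p 8.08e-40). GRHL3, an epithelial transcription factor, was low in control cells (0.149 CPM rising to 0.448 CPM) and fell in targeted cells from 5.58 and 8.68 CPM to 1.05 and 1.19 CPM. BCO2, a carotenoid-cleaving enzyme, and GEM, a small GTPase, also changed direction: BCO2 rose 3.28-fold and fell 2.46-fold, and GEM rose 3.46-fold and fell 1.87-fold.

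In the opposite direction, PAPSS2 (chr10:87659613-87747705), which makes the sulfate donor for sulfation, fell in control cells from 24.97, 25.5 and 26.2 to 10.5, 9.85 and 10.1 CPM. It rose with guide 1 from 21.1, 22.97 and 22.5 to 34.7, 36.8 and 37.4 CPM and with guide 2 from 22.1, 22.1 and 19.8 to 53.5, 57.2 and 54.6 CPM. Its DMSO levels were within 1.18-fold and its trametinib levels 4.41-fold apart, so the reversal arose under the drug. DUSP2, a nuclear phosphatase of MAP kinases, did likewise, with a 3.44-fold fall in control and a 1.99-fold rise in targeted cells. IQGAP2, a scaffold of the cytoskeleton, fell 1.76-fold and rose 2.95-fold.

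**Figure D4:**
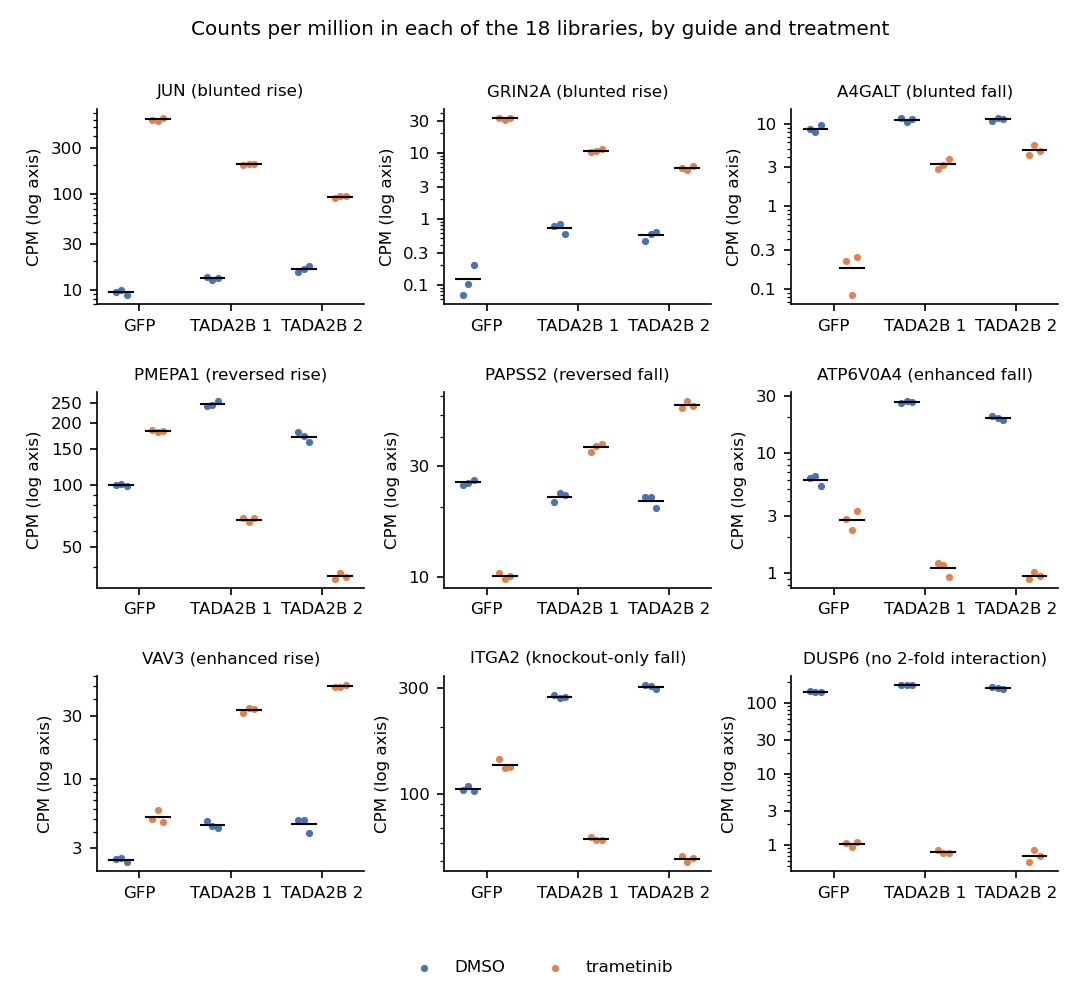
CPM on a log axis for 9 genes, 1 point per library (n = 3 per group) and a bar at each group mean, for the GFP guide and both TADA2B guides. Blue is DMSO and orange trametinib; PMEPA1 and PAPSS2 change direction between control and targeted cells, JUN and GRIN2A rise less in targeted cells, and DUSP6 falls in all.

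Of the enhanced falls, ATP6V0A4, TFPI2 and PTX3 started higher in targeted than in control cells in DMSO, whereas UCN2 started lower. ATP6V0A4 (chr7:138706294-138799560), a subunit of the vacuolar proton pump, fell from 6.28, 6.49 and 5.32 to 2.81, 2.28 and 3.30 CPM in control cells. With guide 1 it fell from 26.2, 27.3 and 26.7 to 1.21, 1.17 and 0.927 CPM, and with guide 2 from 20.7, 19.9 and 18.9 to 0.895, 1.02 and 0.947 CPM. Targeted libraries were the highest in DMSO and the lowest in trametinib (interaction -3.37 ± 0.13). TFPI2, a protease inhibitor of the matrix, fell 2.51-fold and 15.3-fold, and PTX3, a soluble pattern recognition protein, 2.46-fold and 15.4-fold.

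PMEPA1 belongs to a list of 23 TGF-beta targets, of which 15 had a negative and 4 a positive interaction. The shares over all genes were 24.2% and 21.5%. The median of the list was 0.613 higher in targeted cells in DMSO and 0.026 in trametinib. TGFBR2, a receptor of the pathway, rose slightly in control cells, from 59.7 to 82.9 CPM, and fell from 139.8 to 59.6 CPM with guide 1 and from 166 to 59.97 CPM with guide 2. TGFB2, a ligand, rose from 1.98 to 9.93 CPM in control cells and from 3.24 to 5.21 CPM with guide 1. The summed level of 10 fibroblast markers rose with the drug and was higher in targeted cells, from 36.3 to 37.6 CPM in control cells in DMSO to 141.0 to 147.0 CPM with guide 2 in trametinib, with COL1A2, THY1 and POSTN below 1 CPM in every group. Their part in these values was not tested.

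Inflammatory genes as a list fell further in targeted cells. Of 22 tested, 11 had a negative, 3 a positive and 8 no called interaction, beside 24.2% negative and 21.5% positive over all genes. The median responses were -0.902 in control and -1.75 in targeted cells. The median log2 level of the list was nevertheless higher in targeted cells, by 0.769 in DMSO and still by 0.39 in trametinib. IL11, an interleukin 6 family cytokine whose promoter is printed above, went from 11.3, 9.60 and 11.5 to 4.42, 4.87 and 5.42 CPM in control cells. In guide 1 cells it went from 31.9, 30.5 and 33.6 to 2.82, 2.99 and 2.95 CPM, and with guide 2 from 47.7, 51.1 and 47.1 to 3.28, 3.73 and 4.00 CPM. It was thus far higher in targeted cells before the drug and lower after it (-2.45 ± 0.095). IL1A, an alarmin, did not respond past 1.5-fold in control cells (4.09 ± 0.119 and 4.28 ± 0.315 CPM) and fell 4.71-fold in targeted cells. CXCL1, a neutrophil chemokine, went the other way, from 8.18 to 0.648 CPM in control cells and from 3.61 to 1.06 CPM with guide 1 (2.10 ± 0.19).

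Of the 109 knockout-only falls, 43 were apart in DMSO only, 24 in trametinib only, 8 in both and 34 in neither. ITGA2 (chr5:52989326-53094779), the collagen-binding integrin, was at 105, 108 and 103 CPM in control cells in DMSO and at 144, 131 and 132 CPM in trametinib. In guide 1 cells it fell from 279, 269.7 and 273 to 63.99, 62.1 and 61.96 CPM, and with guide 2 from 311, 305 and 297 to 52.3, 49.1 and 51.3 CPM. Targeted libraries were above control libraries in DMSO and below them under the drug (interaction -2.72 ± 0.04). PTGS2, the inducible cyclooxygenase, was at 1.14 ± 0.0496 and 1.12 ± 0.0684 CPM in control cells and fell 6.34-fold in targeted cells, to nearly the control level. PDE2A, a cyclic nucleotide phosphodiesterase, was at 1.43 ± 0.0492 and 0.983 ± 0.296 CPM in control cells and fell 6.49-fold in targeted cells, to 1.98 and 1.82 CPM, still above the control level.

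Genes that trametinib raised more, or only, in targeted cells were fewer than the blunted rises. VAV3 (chr1:107571160-107965144), a guanine nucleotide exchange factor, rose from 2.50, 2.53 and 2.36 to 4.96, 5.89 and 4.75 CPM in control cells. It rose with guide 1 from 4.86, 4.47 and 4.27 to 31.4, 34.2 and 33.7 CPM and with guide 2 from 4.93, 4.91 and 3.93 to 49.6, 49.8 and 51.5 CPM, so that under the drug the groups did not overlap (interaction 2.08 ± 0.11). UNC5C, a netrin receptor, rose from 3.71 ± 0.264 to 6.64 ± 0.447 CPM in control cells, from 2.85 ± 0.207 to 24.1 ± 0.919 CPM in guide 1 cells and from 1.69 ± 0.185 to 38.2 ± 1.34 CPM in guide 2 cells. CD24, a surface protein of progenitor cells, rose from 1.43 to 15.9 CPM in control cells and from 1.53 and 0.937 to 48.7 and 66.2 CPM in targeted cells. GFRA1, the coreceptor for GDNF, rose 3.14-fold in control and 12.6-fold in targeted cells.

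Among the knockout-only rises, SCHIP1, a cytoskeletal linker, rose 8.68-fold in targeted cells against 1.47-fold in control cells, from equal DMSO levels. PTP4A3, a phosphatase linked to metastasis, rose 4.71-fold in targeted cells and stood at 3.59 ± 0.399 and 3.36 ± 0.455 CPM in control cells. OVGP1, a secreted glycoprotein, rose 4.10-fold in targeted cells. MGAT3, a glycosyltransferase, differed, since its rise of 2.40-fold in targeted cells started from 0.872 and 0.788 CPM, below the 3.77 CPM of control cells, and did not reach the control level in trametinib of 2.55 CPM.

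Neuronal and matrix genes were split. Of 45 synaptic genes tested, 20 had a negative, 7 a positive and 18 no called interaction, beside 24.2% negative and 21.5% positive over all genes. Beside GRIN2A, LRRTM2, a synaptic adhesion protein, rose from 0.0633 to 1.02 CPM in control cells and from 0.195 and 0.153 to 0.667 and 0.372 CPM in targeted cells. Of 39 matrix genes, 18 had a negative and 14 a positive interaction. COL21A1, a fibril-associated collagen, rose from 0.870 to 69.7 CPM in control cells and from 1.42 and 1.02 to 26.5 and 16.4 CPM in targeted cells (-2.22 ± 0.15). COL3A1, a fibrillar collagen, rose from 0.153 to 0.815 CPM in control cells and stood at 1.13 and 0.637 CPM with guide 1 (-2.88 ± 0.34). With guide 2 it changed little, from 324 counts in all in DMSO to 312 in trametinib. The receptor kinases AXL and EGFR, markers of undifferentiated melanoma cells, both fell: AXL by 0.64 in control and 0.29 in targeted cells on the log2 scale, and EGFR by 2.32 and 1.71. EGFR was 3.50-fold higher in targeted cells in DMSO and 5.34-fold higher in trametinib.

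No subunit of SAGA had an interaction of 2-fold. Of 24 tested, 10 had a negative, 5 a positive and 9 no called interaction, beside 24.2% negative and 21.5% positive over all genes. KAT2B, the acetyltransferase that TADA2B contacts, had the largest: it rose from 53.1 ± 1.44 to 251 ± 6.82 CPM in control cells, from 84.7 ± 2.59 to 237 ± 7.72 CPM with guide 1 and from 72.97 ± 2.04 to 161 ± 3.81 CPM with guide 2 (-0.93 ± 0.039). ATXN7L1, a paralog of the SAGA subunit ATXN7, had -0.61 ± 0.075. Transcripts encoded by the mitochondrial genome took a larger share of reads in targeted cells (2.537% and 2.598% in DMSO against 1.616% in control cells) and under trametinib (3.337% and 3.479% against 2.195%). Of their 13 genes, 1 had a called interaction, and the median was -0.002.

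Both guides were read separately, against the same control libraries, so their interactions share those libraries. For JUN the log2 interaction was -2.04 with guide 1 and -3.48 with guide 2, for A4GALT 3.83 and 4.38, for PMEPA1 -2.74 and -3.12, and for VAV3 1.79 and 2.37. Guide 2 gave the larger value in each of these genes. Other named genes had the opposite order, such as ATP6V0A4 (-3.47 with guide 1 and -3.26 with guide 2) and PTGS2 (-2.85 and -2.43). Strong interactions numbered 1719 with guide 1 and 2518 with guide 2. The direct test of guide 2 against guide 1, which uses no control library, called a different trametinib response for 2412 genes (9.8%), and for 114 (0.463%) the difference was at least 2-fold. JUN was among the latter, at -1.45 ± 0.058 (adjusted p 8.93e-22). Of the classes, 716 of 980 blunted rises and 520 of 645 blunted falls were called with each guide alone, as were 69 of 100 reversed rises, 79 of 106 reversed falls, 45 of 65 enhanced rises, 44 of 61 enhanced falls, 107 of 155 knockout-only rises and 82 of 109 knockout-only falls. The classes were picked on the average of the same guides, so high counts here follow in part from that choice. Among all 24602 genes, 9654 were called with guide 1 and 10826 with guide 2.

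Vemurafenib, which inhibits mutant BRAF one step above MEK, was given at 1 uM for the same 24 h, and the doses of the drugs are not matched. The interaction with vemurafenib minus that with trametinib, fitted over all 27 libraries and 25199 genes, was called for 1486 genes (5.9%), and 97 (0.385%) differed at least 2-fold. The DMSO libraries are shared by both, so the values are given side by side. JUN had -2.91 with vemurafenib and -2.76 with trametinib, GRIN2A -3.85 and -4.41, PMEPA1 -2.70 and -2.93, and PAPSS2 2.50 and 2.37. ATP6V0A4 had -3.36 and -3.37. The test of the difference between the drugs passed for GRIN2A (0.56 ± 0.099, adjusted p 7.93e-05), PMEPA1 and JUN and not for PAPSS2 (adjusted p 0.404) or ATP6V0A4 (0.993).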

How the data were processed

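RNA from A375 cells was sequenced by the submitters with a stranded poly(A) kit, per the labels' protocols. The deposited values are raw read counts per gene. The submitters' processing notes name bcl2fastq, HISAT2, HTSeq and the hg38 build; their versions, the annotation release and the strand setting were not given in the sources used here, so overlapping and antisense genes stay uncertain. All 58721 gene identifiers matched GENCODE 29, which gave coordinates. Rows that name no gene were 0.

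Counts of 18 libraries (67502300 to 92513726 per library) were scaled by TMM, filtered with filterByExpr (minimum count 10) and fitted with edgeR 4.0.16's quasi-likelihood test, 1 mean per group, with Benjamini-Hochberg adjustment over 24602 genes. The test was checked on simulated counts. CPM values use TMM-scaled library sizes. Named genes were protein-coding, had an average log2 CPM of at least 1, a strong interaction called with each guide alone, and were the 5 largest per direction of blunted genes and the 4 largest of each other class. The largest called members of each list described and 12 genes chosen by name were added. Classes, lists and named genes were chosen with earlier results of these data known. Alternatives changed normalization, filter, test (DESeq2 1.42.0, limma 3.58.1), guides, thresholds and libraries.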

Additional observations from a re-analysis of the deposited data

Results flagged for a closer look

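For 6 named genes the trametinib response differed at least 2-fold between the guides in the direct test of guide 2 minus guide 1 (edgeR, adjusted over all genes). On the log2 scale the difference was -1.62 for CCN3, -1.60 for PTX3, -1.45 for JUN, -1.19 for DCT, 1.14 for CD24 and 1.43 for UNC5C. In each the guide 2 response was farther from the control response than that of guide 1. For 4 named genes the interaction differed at least 2-fold between vemurafenib and trametinib: the difference was -1.10 for ANO4, -1.09 for OVGP1, -1.03 for PDZD2 and 1.11 for TFPI2. In each the vemurafenib interaction was the smaller. Doses of the drugs are not matched. Groups of 3 libraries were not screened for single outlying libraries.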

How the results depend on the processing

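No result changed sign under any alternative, but the balance of called interactions turned: 5295 were positive and 5955 negative, against 5659 and 5559 with DESeq2's size factors and 5670 and 5582 with its Wald test; strong ones stayed mostly negative (1201 against 1023 and 1033). Leaving out each library in turn gave 10549 to 11220 called interactions, 942 to 1015 strong positive and 1171 to 1269 strong negative ones. It moved no count by over 1.5 times. With the replicate block 11540 genes were called, and guide differences were 2917 in place of 2412. Same-numbered libraries correlated at a median 0.0601 over 45 pairs, 12 of them over 0.1, and other pairs at -0.0391. Not every pair was over 0.1, so no pairing was assumed; that 16 of 18 libraries correlated best with their own number is a hint from the data of a shared effect. Some class sizes depended on the settings. Without a filter on low counts, reversed rises were 169 and reversed falls 191. With at least 1 CPM in 3 libraries (16969 genes), strong interactions were 619 positive and 780 negative, blunted rises 629, reversed rises 31, reversed falls 38, knockout-only rises 83 and knockout-only falls 68; guide differences of at least 2-fold were 61 and drug differences 59. With 2-fold as the boundary of a response, reversed rises were 34 and reversed falls 32. With interactions of 1.5-fold, blunted rises were 1783, blunted falls 1312, enhanced rises 123, enhanced falls 113, knockout-only rises 256 and knockout-only falls 181. Of 195 genes followed, 17 changed a call in some setting, 5206 of 5252 values keeping call and direction. Low-level genes are limited by counts.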
